A study of Mus musculus with 7 samples.

Results

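CTCF binding was described across the domains of Sox9 and of Kcnj2 and Kcnj16 on mouse chromosome 11, from 110.8 to 113.2 Mb in the mm10 build. The members were all peaks and peak pairs centred in this interval in any of the 7 libraries. ChIP-exo 5.0 maps a protein on DNA by digesting immunoprecipitated fragments with an exonuclease up to the crosslink, so that the 5′ ends of the tags mark where digestion stopped on each strand. A peak is a 21 bp stretch of 1 strand with at least 2 tags, and a pair is a forward peak followed 10 to 80 bp downstream by a reverse peak. Sites were the pairs of the library made from 2,700,000 liver cells, taken in the order of their tags and kept at least 100 bp apart. This gave 48 sites in the domain of 78223 sites in all. The number of tags at a site is the sum over the peaks in a 200 bp window around its centre. Sites are numbered by rank in these tags, and the number in parentheses after a site is its centre on chromosome 11.

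All 7 libraries came from wildtype mice and were made with 1 CTCF antibody from Millipore. The mice were adult males of 16 weeks. Brain, lung, kidney and liver, processed as pieces of 100 mg, each gave 1 library, and there was 1 library each of 2,700,000, 270,000 and 27,000 liver cells. The numbers of liver cells are estimates from the weight of tissue and not counts. The sources give formaldehyde as 0.3% in the sample labels and 1% in the methods, and the labels name IgG as the antibody of the isolation step beside CTCF as the ChIP antibody. Whole organs hold many cell types, so the counts are sums over them, and fewer cells with a bound site cannot be told apart from fewer tags per bound cell. A binding assay gives no expression, and the organ labels were not checked against marker genes. No library has a replicate, so no p-value is given, and intervals cover counting error only.

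CTCF is a zinc finger protein that, together with cohesin, marks the borders of chromatin domains and holds loops between them. Sox9 encodes an HMG box transcription factor that directs cartilage formation and the differentiation of the testis. Kcnj2 encodes Kir2.1, an inward rectifier potassium channel of muscle, heart and brain, and its neighbour Kcnj16 encodes Kir5.1, a channel subunit of kidney and brain. A gene desert separates Kcnj2 from Sox9. The locus is a textbook case of neighbouring chromatin domains, in which duplications that span the border between them join enhancers of Sox9 to Kcnj2.

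Promoter sequences came from RefSeq (assembly GRCm38.p6, which has the coordinates of mm10), which gave 17 windows for 13 of the 17 genes annotated in the domain and none for Sox9. A window runs from 250 bases before a transcription start to 50 bases after it. Of the 17 windows, 1 held a peak of the 2,700,000 cell library, against 22.8% of the windows of the genome. It belonged to LOC115487747, a long non-coding RNA gene. Its window is shown because it is the promoter of the domain with a peak in the deepest library, and the capitals mark the 21 bases of that peak, a reverse peak of 4 tags at chr11:113173063-113173083. The 250 bases before the start of Kcnj2 are shown because Kcnj2 is the channel gene next to the desert, and they held no peak in any of the 7 libraries.
LOC115487747 (chr11:113173034-113173333, minus strand): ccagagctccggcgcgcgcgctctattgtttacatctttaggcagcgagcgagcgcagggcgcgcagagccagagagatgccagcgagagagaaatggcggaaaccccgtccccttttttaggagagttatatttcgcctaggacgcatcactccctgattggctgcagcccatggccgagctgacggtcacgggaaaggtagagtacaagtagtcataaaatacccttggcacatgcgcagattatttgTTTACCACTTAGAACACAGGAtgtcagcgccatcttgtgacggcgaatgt
Kcnj2 (chr11:111065914-111066163, plus strand): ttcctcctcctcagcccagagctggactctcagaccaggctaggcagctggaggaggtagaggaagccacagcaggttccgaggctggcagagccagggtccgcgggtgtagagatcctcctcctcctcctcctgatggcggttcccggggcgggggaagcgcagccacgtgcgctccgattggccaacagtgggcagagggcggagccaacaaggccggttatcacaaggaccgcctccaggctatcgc
The 7-letter string AGGNGGC, part of the CTCF core motif, was searched on both strands of each window. It occurred in 3 of the 17 windows of the domain and in 29.35% of 32851 windows of the genome, and in neither of the windows shown. A match of letters is a description and no binding site.

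The domain was sparse in sites. With 2,700,000 cells it held 2 sites per 100 kb (exact 95% interval 1.47 to 2.65), against 4.04 (3.28 to 4.93) in the equally long flank before it, 7.5 (6.44 to 8.68) in the flank after it, 4.64 over chromosome 11 and 2.89 over the genome. The flanks also held more genes, with 18 and 49 protein-coding genes against 4 in the domain. The median site of the domain had 43 tags, against 38 and 51 in the flanks before and after it and 32 over the genome. At least 100 tags were held by 15 of 48 sites (31.25%), against 20.6% and 22.2% of the sites of the flanks. Of the 76911 sites on placed chromosomes, over which the genome's density was taken, 17.2% had as many. These shares are given without intervals, and the 15 include sites 13 and 14, whose windows overlap those of sites 5 and 6. The zone of Kcnj16 and Kcnj2, from the start of the interval to the outer end of Kcnj2, held 6 sites. The desert between Kcnj2 and the near end of Sox9 held 29 sites, and the zone from Sox9 onward held 13. Their densities were 2.17 (0.795 to 4.72), 1.70 (1.14 to 2.44) and 3.11 (1.66 to 5.32) sites per 100 kb, with intervals that overlapped. Because windows of neighbouring sites can overlap, the 48 sites fall into 38 places. Counted by place, each peak enters once.

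**Figure D1:**
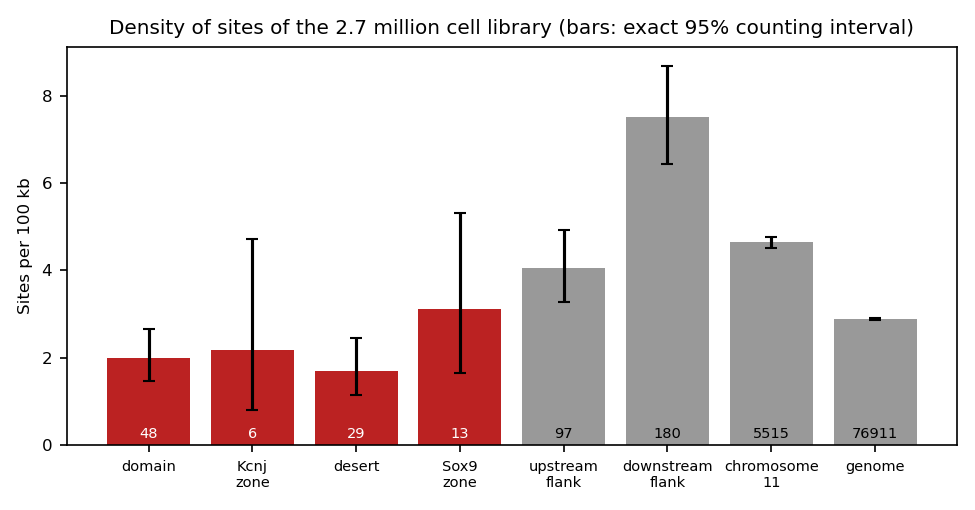
Sites of the 2,700,000 cell library per 100 kb in the domain and its 3 zones (red) and in the flanks, chromosome 11 and the genome (grey), with the exact 95% counting interval and the number of sites at the foot of each bar. The domain at 2 sites per 100 kb lies below both flanks, at 4.04 and 7.5, while the intervals of the 3 zones overlap.

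The sites gathered in a few groups separated by long empty stretches. The longest stretch without a site ran for 320 kb from site 20 (111042492), before Kcnj2, to site 46 (111362062), in the desert, and it contained Kcnj2. In the map of tags along the domain, tall groups stood between Kcnj16 and Kcnj2, in the Kcnj2 side of the desert, in the part of the desert before Sox9 and at the far end past Sox9.

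**Figure D2:**
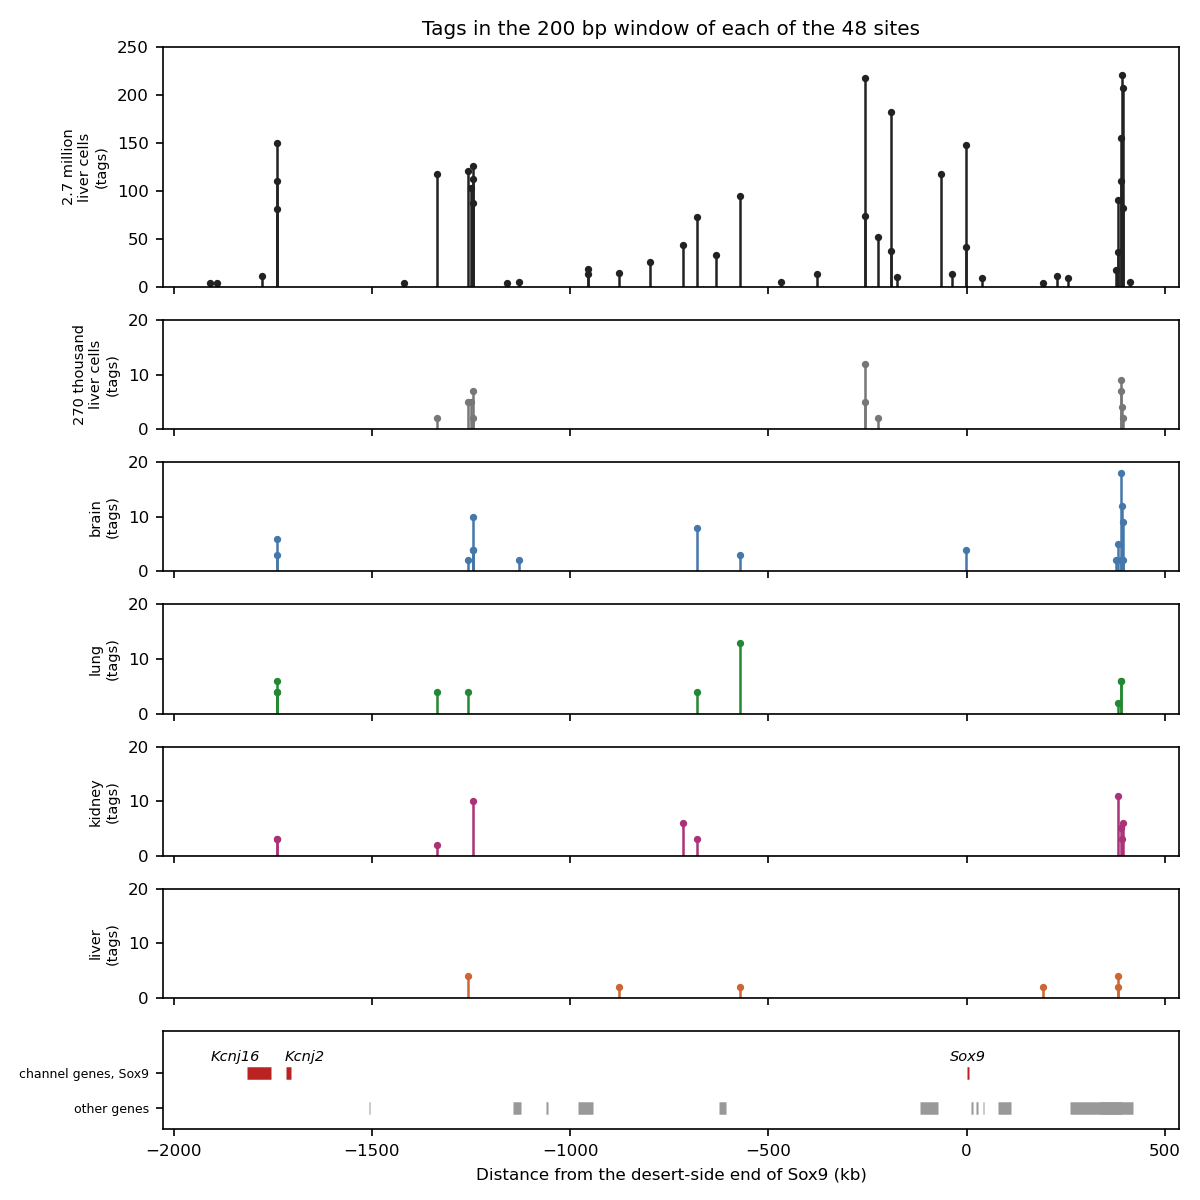
Tags in the 200 bp window of each of the 48 sites against distance from the desert-side end of Sox9 in kb, 1 panel per library, with the annotated genes at the foot. The 2,700,000 cell panel has its own axis up to 250 tags and the others end at 20; the brain panel peaks at 18 tags past Sox9, and no organ shows tags over the last 10 sites of the desert before the pair of sites next to Sox9.

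The group past Sox9 held 3 of the 5 sites with most tags, and all 3 lay within 2610035D17Rik, a long non-coding RNA gene that crosses the far edge of the interval. Of the 13 sites of this zone, 9 lay inside this gene, and 5 of them also lay inside LOC115487747. With 1 kb on each side, 2610035D17Rik held 1136 tags with 2,700,000 cells, its end beyond the interval included, where the whole domain held 4893. In the organs it held 151 tags in kidney, 100 in brain, 30 in liver and 20 in lung, and it held 45 with 270,000 cells.

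Site 1 (chr11:113175393-113175592) had 221 tags with 2,700,000 cells, 4 with 270,000 cells, 12 in brain, 3 in kidney and none in lung or liver. Site 3 (113176361) had 207 tags, with 2 at 270,000 cells, 9 in brain, 6 in kidney and none in lung or liver. Both therefore had tags in the same pair of organs. The kidney tags of each were 1 peak of a single position, which at site 3 lay 97 bp from the centre, at the edge of the window. Site 5 (113172600) had 155 tags, with 9 at 270,000 cells, 18 in brain, 6 in lung, 5 in kidney and none in liver. Its 18 brain tags were the highest value of any organ at a site of the domain. Site 17 (113165311) had 91 tags and was the only site with tags in all 4 organs, namely 11 in kidney, 5 in brain, 4 in liver and 2 in lung. Tags in all 4 organs were listed at 1 of 48 sites of the domain (2.08%) and at 5.96% of all sites. Site 17 had no tags with 270,000 cells, although it was the site with most kidney tags. Sites 13 and 19, with 111 and 82 tags, overlap the windows of sites 5 and 3, and 94.6% and 97.6% of their tags lay on the forward strand, against 51.6% and 49.8% at sites 5 and 3. The remaining sites of the zone, ranked 27, 31, 37, 39, 40, 43 and 48, had 4 to 37 tags with 2,700,000 cells and at most 2 in any organ.

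Between the channel genes stood 1 place of 3 overlapping sites (chr11:111042181-111042591), 14313 bp past the end of Kcnj16 and 23672 bp before the start of Kcnj2. It was the place nearest to an end of either gene. It had 191 tags with 2,700,000 cells, 6 in brain, 10 in lung, 3 in kidney and none in liver or with 270,000 cells. Its leading site 6 (111042392) had 150 tags, 3 in brain, 4 in lung and 3 in kidney, and lacked tags with 270,000 cells. The sites beside it, 14 and 20, had 110 and 81 tags. The tags of site 14 were 95.5% forward and those of site 20 only 6.17% forward, so the place had forward stops on 1 side and reverse stops on the other. Kcnj16 itself held site 36 (111005781), a weak site of 12 tags that was listed in no other library. The last sites of this zone, 44 and 45, had 4 tags each and none elsewhere.

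Kcnj16, with 1 kb on each side, held 58 tags with 2,700,000 cells, 18 with 270,000 cells, 22 in lung, 36 in kidney, 13 in liver and none in brain. The kidney tags fell in 12 peaks and the lung tags in 4, and none of these peaks lay at a site. Kcnj2, counted in the same way, held 4 tags with 2,700,000 cells, none with 270,000 cells, 22 in lung, 3 in kidney, 4 in liver and none in brain. Its lung tags fell in 2 peaks, of which both were single positions. Sox9 held 3 tags with 2,700,000 cells, none with 270,000 cells, 2 in brain, 9 in lung, 8 in kidney and none in liver. All 3 genes therefore had few tags in the deepest library, and the sites of the domain lay beside the genes and not in them, except for site 36.

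The place nearest to Sox9 (chr11:112779925-112780288) lay in the desert and had 170 tags with 2,700,000 cells. Its leading site 7 (112780025), 2185 bp before Sox9, had 148 tags, 4 in brain and none in lung, kidney, liver or with 270,000 cells. Site 25 (112780189), 2021 bp before Sox9, had 42 tags, of which 7.14% were forward, and none elsewhere. Brain was thus the 1 organ with tags at the sites next to Sox9, in a forward peak of 2 tags and a reverse peak of 2 tags on either side of the centre of site 7. On the other side of Sox9 the next site was site 39 (112820377), which had 9 tags and none in any other library.

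On the Kcnj2 side of the desert, 5 sites of at least 88 tags lay close together near Gm30158, a long non-coding RNA gene whose nearest site was site 9 at 11221 bp. Site 9 (111523678) had 121 tags with 2,700,000 cells, 5 with 270,000 cells, 2 in brain, 4 in lung, 4 in liver and none in kidney. It was the 1 site of at least 100 tags with tags in liver. Site 8 (111537842) had 126 tags, with 2 at 270,000 cells, 4 in brain, 10 in kidney and none in lung or liver. Its kidney tags were 1 forward peak 13 bp past the centre, without a reverse peak. The forward peak of the site's own pair lay 18 bp before the centre. Site 12 (111536225) had 113 tags, with 7 at 270,000 cells, 10 in brain and none in the other organs. Site 15 (111532665) had 103 tags and 5 with 270,000 cells, and no organ had tags there. Site 18 (111537731), with 88 tags, overlaps site 8 and shares its brain peak of 4 tags. Brain thus had tags in the windows of 4 of these 5 sites, with the same peak at sites 8 and 18. Kidney had tags in the window of site 8 alone, and lung and liver in that of site 9 alone. A kidney pair of 9 tags (111536024) lay near site 12 but outside its window. Counts at 1 site are small, and whether these organs differ in binding was not tested. Site 10 (111445987), nearer to Kcnj2, had 118 tags, with 2 at 270,000 cells, 4 in lung, 2 in kidney and none in brain or liver.

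The sites in the middle of the desert had under 100 tags, and 3 of them had 6 or more tags in 1 organ. Site 16 (112209580) had 95 tags with 2,700,000 cells, none with 270,000 cells, 3 in brain, 13 in lung, 2 in liver and none in kidney. Its lung tags were the most at any site in lung, in a reverse peak of 8 and a forward peak of 5 tags, each at a single position. The reverse peak lay at -11 bp from the centre and the forward peak at 6 bp, the opposite order to that of a pair. Site 22 (112103452) had 73 tags, with 8 tags in brain, 3 in kidney, 4 in lung and none in liver. Its brain tags were 1 forward peak 32 bp past the centre. Site 24 (112067357) had 44 tags and 6 in kidney only, in 1 peak of a single position. Site 32 (111904218) had 15 tags and 2 in liver. Sites 30 and 33 lay within the non-coding gene Gm30337 with 19 and 14 tags, site 41 within Gm30219 with 5 tags, and site 28 at 6246 bp from Gm39461 with 33 tags. Of these only site 41 had organ tags, 2 in brain.

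**Figure D3:**
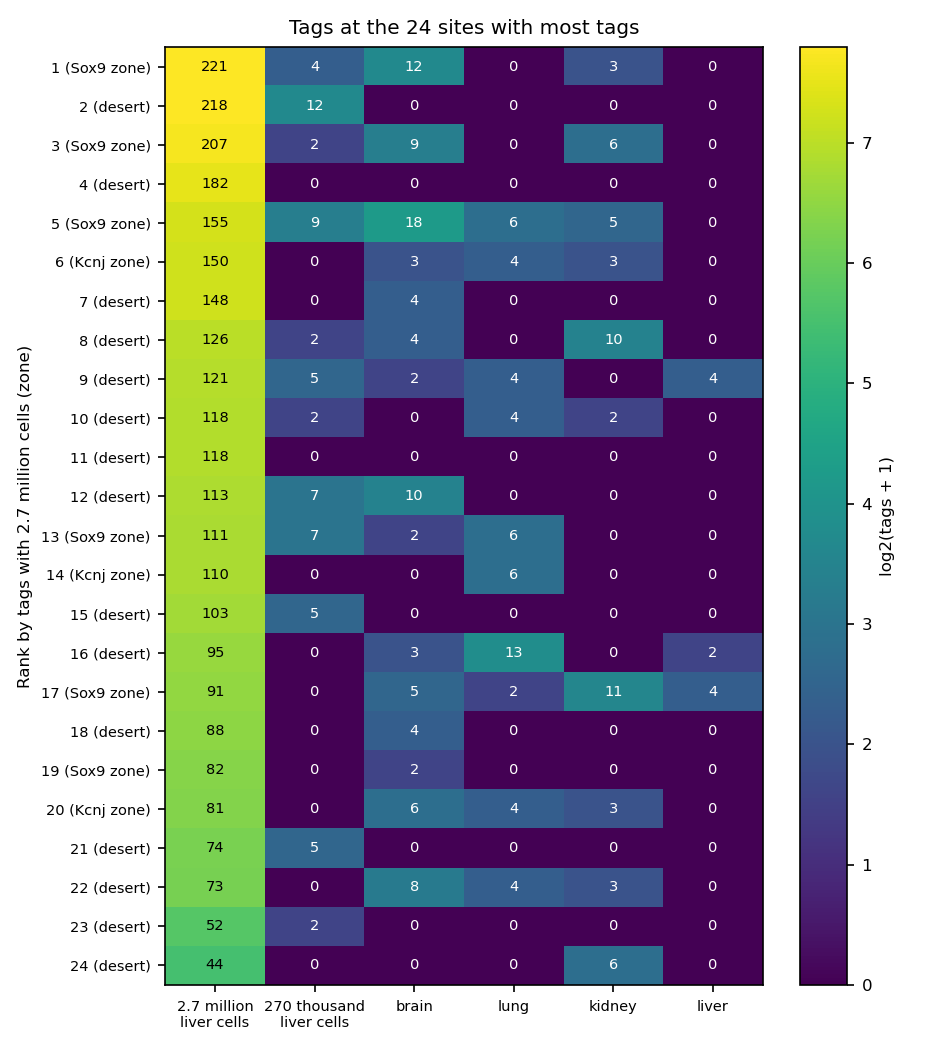
Tags at the 24 sites with most tags with 2,700,000 cells, by rank and zone (rows) and library (columns), with the number of tags in each cell and colour for log2(tags + 1). Sites 2, 4, 11, 15, 21 and 23, all in the desert, have 52 to 218 tags with 2,700,000 cells and 0 in every organ; the liver column holds tags at sites 9, 16 and 17 only.

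Before Sox9, 10 sites in a row had no tags in any organ, the longest such run of the domain. They lay in 8 places whose centres ran over 433 kb, from site 42 (112313236) to site 35 (112745976), 36234 bp before Sox9. With 2,700,000 cells they had 5 to 218 tags with a median of 45, and 3 of them had at least 100 tags. Site 2 (chr11:112525071-112525270) had 218 tags and, with 270,000 cells, 12 tags, the most of that library at any site of the domain. Site 4 (112590995) had 182 tags and none with 270,000 cells. Site 11 (112718752), 7396 bp from the non-coding gene BC006965, had 118 tags and none with 270,000 cells. Sites 21 and 26 overlap sites 2 and 4 and had 74 and 38 tags. Of the 10 sites, 3 had tags with 270,000 cells, namely sites 2, 21 and 23. The run was picked out after the values were seen, and 3.67% of all sites of the genome lie in runs at least as long. The organ libraries listed peaks in this stretch away from the sites at 9.01, 2.08, 14.3 and 5.55 peaks per 100 kb in brain, lung, kidney and liver, against 9.38, 2.96, 16.8 and 6.58 over the whole domain. What part the low depth of the organ libraries has in the run was not tested.

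Over the domain, the share of sites with organ tags was close to that over the genome. Brain had tags at 17 of 48 sites, or 35.4% (95% Wilson interval 23.4 to 49.6), against 37.3% of all sites. Lung had tags at 10 sites, or 20.8% (11.7 to 34.3), against 29%, and kidney likewise at 10 sites, against 26.8%. Liver had tags at 6 sites, or 12.5% (5.86 to 24.7), against 16.1%. For each of these the genome's share lay within the interval of the domain. The counts depended on weak peaks. Without peaks of 1 position, 38 sites were left, with tags at 14 in brain (against 28.1% of the sites of the genome found in the same way), 4 in kidney (13.2%), 3 in lung (14.9%) and 1 in liver (12.6%). With peaks of at least 3 tags, 29 sites were left, with tags at 10 in brain (37.5%), 9 in kidney (25.5%), 7 in lung (32.9%) and 1 in liver (8.64%). The genome's share again lay within the interval of the domain in each case. The 270,000 cell library had tags at 12 sites, or 25% (14.9 to 38.8), against 29.2%, and the 27,000 cell library at none, against 1.85%. At least 1 organ had tags at 23 sites, or 47.9%, against 54.3%, and no organ had tags at 25 sites, or 52.1%, against 45.7%. By zone, an organ had tags at 3 of 6 sites around the channel genes, at 11 of 29 in the desert and at 9 of 13 from Sox9 onward. With sites at least 200 bp apart, so that no windows overlap, 13, 7, 9 and 5 of 38 sites had tags in brain, lung, kidney and liver. The background was measured in the same windows moved by 5 kb to each side, 96 in all. None of these held tags in brain or lung, 5 did in kidney, 1 in liver and 1 with 270,000 cells. The lists begin at 2 tags per peak, so that an absent value does not show that CTCF was absent.

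Among the 15 sites of at least 100 tags, the organs reached a smaller share of sites than over the genome. The 15 include sites 13 and 14, whose own pairs had 12 and 8 tags and whose windows overlap those of sites 5 and 6. The 2 lung peaks of site 13 are also those of site 5, so the lung count includes them at both. The intervals treat such overlapping sites as separate. Brain had tags at 9 of the 15 (60%, against 76.9% of the 13761 such sites of the genome), lung at 6 (40%, against 63.1%) and kidney at 6 (against 57.1%). In the flanks before and after the domain, the shares were 65% and 67.5% in brain, 70% and 55% in lung, and 65% and 55% in kidney. In liver, 1 of the 15 had tags, or 6.67% (1.19 to 29.8), against 40%, and this was the 1 library whose interval lay wholly below the genome's share. The flanks had liver tags at 11 of 20 and 13 of 40 such sites. The liver count depends on the cut at 100 tags, which was chosen after the values were seen. Site 17, with 91 tags and 4 in liver, fell just below it. Counted by place, its place had 111 tags and 6 in liver, so that it joins the place of site 9 among the 14 places of at least 100 tags. The genome's share was taken over sites and not places. The 270,000 cell library had tags at 10 of the 15 (66.7%, against 75.1%), and at 75% and 67.5% of such sites in the flanks. None of the 15 had tags in all 4 organs, against 22.7%, and 4 had tags in no organ (26.7%, 10.9 to 52.0), against 10.1%. These 4 were sites 2, 4, 11 and 15. In the flanks before and after the domain, 30% and 17.5% of such sites had tags in all 4 organs, and 10% and 17.5% in no organ. The liver organ library had the fewest tags of the organs, 527038, and the part of depth in its low count was not tested. Its 6 sites and the 12 sites of the 270,000 cell library had only site 9 in common, 1 of 6 and 1 of 12. Over the genome, 63% of the sites with tags in the liver organ library also had tags with 270,000 cells, and 34.8% the other way round. This overlap was looked at after the values were seen.

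**Figure D4:**
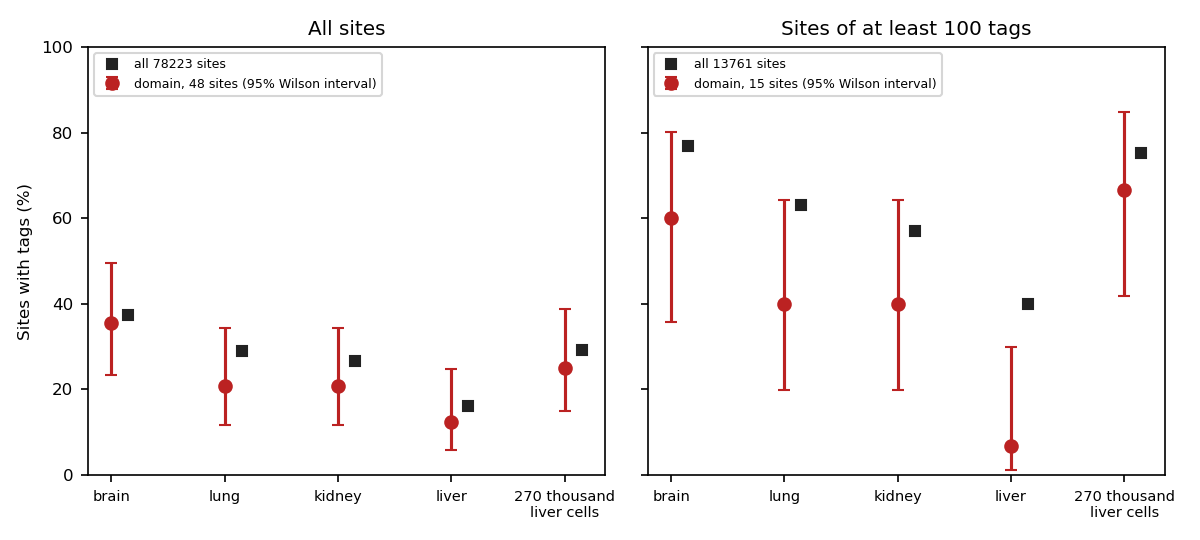
Percent of sites with tags in each library, for all sites (left) and sites of at least 100 tags (right); red points are the domain with 95% Wilson intervals and black squares all sites of the genome. For sites of at least 100 tags, liver stands at 6.67% with an interval up to 29.8%, below the genome's 40%, whereas all the other intervals of both panels reach the genome's value. The cut at 100 tags was chosen after the values were seen.

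Stops were measured from the centres of the sites, which are the midpoints of pairs of the 2,700,000 cell library, so that its own stops lie near the centre by construction and the other libraries cannot be compared with it. The commonest forward stop with 2,700,000 cells lay at -18 bp and the commonest reverse stop at 22 bp, 40 bp apart. This rests on 310 peaks within 100 bp of a site, where a peak in overlapping windows counts at each site. Counted in this way, the commonest stops lay 50 bp apart over 29 peaks in brain and 55 bp apart over 22 with 270,000 cells. These values come from 2 or 3 peaks per position each. Counted once each, the peaks at sites numbered 276 with 2,700,000 cells, 26 in brain and 18 with 270,000 cells. The 18 fall below the minimum of 20 peaks set for such a value. Lung, kidney and liver had too few peaks for such a value. The distance between the forward and the reverse peak of a site had a median of 36 bp at the 15 sites of at least 100 tags, with a range from 21 to 46 bp. The median was 41 bp at sites of 20 to 99 tags and 48 bp at weaker ones. Over the genome the medians of these 3 classes were 41, 46 and 51 bp.

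**Figure D5:**
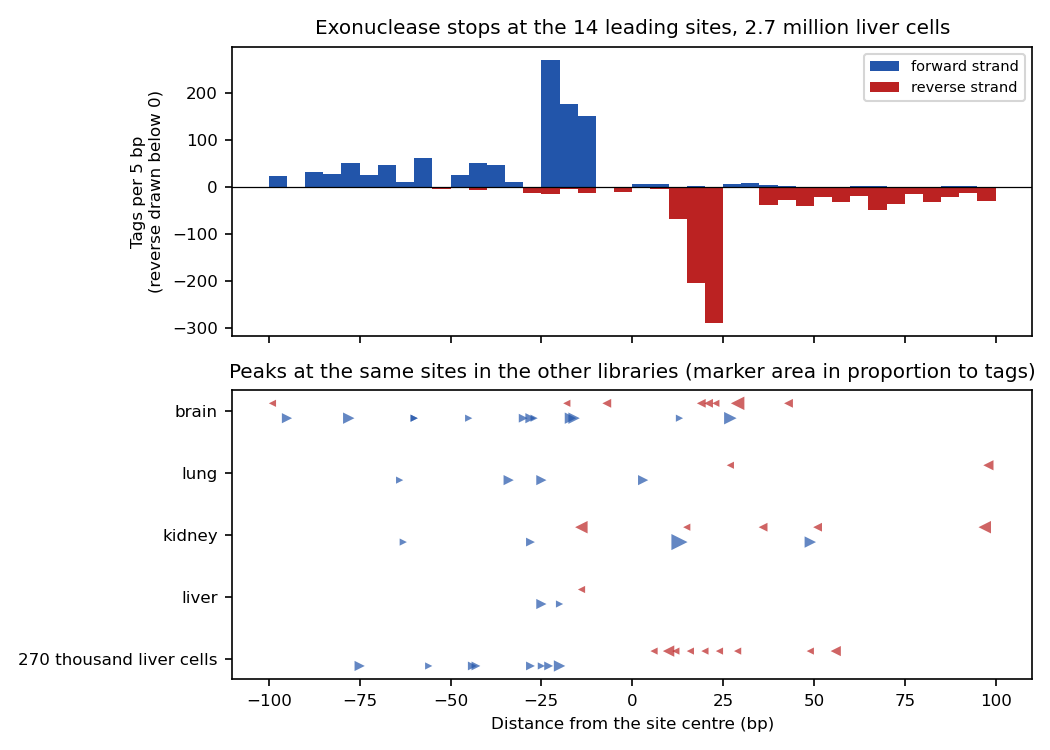
Exonuclease stops against distance from the site centre in bp at the leading sites of the 14 places with at least 100 tags: tags per 5 bp with 2,700,000 cells (top, forward above and reverse below 0) and single peaks of the other libraries (bottom, forward pointing right, reverse pointing left, area in proportion to tags). The 2,700,000 cell library, whose pairs set the centres, has its highest stops within 25 bp on both sides, and the largest kidney peaks lie at 13, -14 and 97 bp.

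Most organ peaks of the domain lay away from the sites and were of a single position. Brain listed 225 peaks in the domain with 698 tags, lung 71 with 430, kidney 404 with 1354 and liver 158 with 333. The cell libraries listed 1077 peaks with 4893 tags, 161 with 503 and 5 with 14. The share of the domain's tags that lay at sites was 12.5% in brain, 10% in lung, 4.80% in liver and 3.62% in kidney, and 9.94% with 270,000 cells. No such share is given for the genome. A peak whose tags all start at the same base is a peak of 1 position. Most peaks were of this kind over the genome too. Kidney had 94.6% of them among its peaks of the domain and 91.5% among all its peaks. For brain the domain and genome values were 88.9% and 83.2%, and for liver 86.1% and 76.3%. The lung library had 94.4% and 83.1%, and the 270,000 cell library 85.7% and 76.0%. In brain, 26.9% of the peaks at sites were of 1 position against 97.0% of the others, and with 270,000 cells 27.8% against 93.0%. In lung the shares were 70% and 98.4%, in kidney 72.7% and 95.2%, and in liver 85.7% and 86.1%. These shares rest on 26 peaks at sites in brain, 18 with 270,000 cells, 11 in kidney, 10 in lung and 7 in liver. The share was lower at sites in these 5 libraries, by under 1 percentage point in liver. How far peaks of 1 position are PCR copies was not tested.

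Tags per 1,000,000 listed tags were set beside the same length of genome. The domain had 828 (784 to 873) in kidney, 676 (627 to 728) in brain, 632 (566 to 703) in liver and 622 (564 to 684) in lung, where the genome had 860, 863, 818 and 883. With 2,700,000, 270,000 and 27,000 cells it had 742 (722 to 763), 785 (718 to 857) and 393 (215 to 660), where the genome had 864, 812 and 789. All 7 values were below the genome's. The intervals treat each tag as a separate count, although tags come in peaks of at least 2. They are therefore too narrow and do not show which libraries differ from the genome. In kidney and with 270,000 cells the direction depended on the library total. Without 23 crowded 10 kb bins, the mitochondrial genome and unplaced sequences, the domain had 938 in kidney and 1035 with 270,000 cells, above the genome's 902, while the other 5 libraries stayed below it. The 5 peaks of the 27,000 cell library had 2 to 5 tags, were all of 1 position and lay at least 13677 bp from a site. That library listed 35594 tags in all, against 6592538 with 2,700,000 cells.

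Pairs of forward and reverse peaks within the shallower libraries were few. Brain had 4 pairs in the domain, and all 4 had a 2,700,000 cell pair within 50 bp, against 92% of brain pairs over the genome. They lay at site 5, site 12 and, in 2 overlapping pairs, site 3. The 270,000 cell library had 5 pairs, all shared, against 96.3%, at sites 1, 2, 5, 9 and 12. Kidney had 3 pairs, of which 1 was shared, against 77.3%. The other two kidney pairs had 9 tags, 160 bp from a pair of the deepest library and close to site 12, and 5 tags (112480627), 44408 bp from any such pair and within the run of sites without organ tags. Lung, liver and the 27,000 cell library had none.

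The 14 other genes annotated in the domain are 13 long non-coding RNA genes or pseudogenes and Gm11677, a protein-coding gene. Besides those named above, the sites nearest to them were site 46, of 4 tags, at 85068 bp from the pseudogene Gm11675, site 41 at 68887 bp from Gm11677, site 25 at 12542 bp from Gm11681, site 39 at 9776 bp from Gm30562, at 2588 bp from 1700012H19Rik and at 40500 bp from Gm46301, and site 31 at 23762 bp from Gm39467. None of these genes held a site. With 1 kb on each side, the tags with 2,700,000 cells were 8 at Gm11675, 2 at Gm11677, 6 at Gm30562, 5 at 1700012H19Rik, 17 at Gm46301 and 7 at Gm39467, and none at Gm11681. BC006965 held 42 tags, 14 with 270,000 cells, 14 in brain, 16 in kidney, 6 in liver and none in lung, again away from any site.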

How the data were processed

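Members, zones and gene lists were chosen with earlier results of these data known. CTCF ChIP-exo 5.0 had been run on 7 mouse libraries, 1 per group, sequenced from both ends at 40 bp. Of tools and builds, the submitters' notes list bcl2fastq 2.16, BWA 0.7.9a and mm10, whereas for alignment the study's methods name the genomes of yeast and human. The authors had removed PCR duplicates and reads with several alignments. The authors deposited peak lists per library holding raw tag counts for every peak and the spread of tag positions as a standard deviation. Library totals were 35594 to 6592538 tags.

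From these counts, peaks were paired, most tags first, each used once, and tags were summed in windows. Site sequences were not analysed here. Gene positions came from RefSeq GRCm38.p6. Sites were named by a rule: the 20 with most tags, those nearest to or inside each gene, the top site of each zone, the 5 top sites of each organ, sites with tags in all 4 organs, and up to 10 organ pairs more than 100 bp from any pair of the 2,700,000 cell library. Alternatives changed the gap, spacing, window, control, tag minimum, ranking library and peaks of 1 position. Crowded 10 kb bins, in which 6 libraries each had 20 peaks or more, numbered 23, with 0 in the domain. Pairing was tested on simulated data. The scripts ran in Python 3.11.15 with scipy 1.17.1, pandas 2.3.3, numpy 2.4.6 and matplotlib 3.10.9. Intervals are 95% Wilson or exact Poisson intervals and cover counting error only. Those on tags treat each tag as a separate count and are too narrow.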

Additional observations from a re-analysis of the deposited data

Results flagged for a closer look

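Organ peaks also gathered at places of the domain where the 2,700,000 cell library had no site. Their peaks enter the counts over all peaks above, but none of the comparisons at sites. In each case peaks of at least 3 libraries stood within 100 bp of the next. None was checked against replicates.

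The largest such group was centred 1265 bp before the start of Kcnj2 (chr11:111064804-111064994) and had 21 organ tags, 17 in lung and 4 in kidney, beside 6 with 270,000 cells and 12 with 2,700,000 cells. The 2 lung peaks, of 9 and 8 tags, the kidney peak and both 270,000 cell peaks lay on the reverse strand, and each was of 1 position. In the 2,700,000 cell library there were 2 forward peaks and 1 reverse peak. The group lies outside the 1 kb added to Kcnj2 in the counts above.

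A group of 8 organ tags, 3 in brain, 3 in kidney and 2 in liver, lay within the desert (chr11:112366085-112366155), inside the run of sites without organ tags and 191179 bp from Gm39461. The 2,700,000 cell library had none there. A group of 5 organ tags, 2 in kidney and 3 in liver, lay 83221 bp before Kcnj16 (chr11:110884727-110884898), beside 2 tags with 270,000 cells and none with 2,700,000.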

How the results depend on the processing

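No paired analysis was possible because each group has 1 library, and no replicate could be left out. Of the alternatives, 65 values stayed close to the reported ones, 50 moved and 2 changed direction. The cause of the moves was not tested beyond the fewer peaks or sites that a setting leaves. With a gap of 20 to 60 bp, 42 sites remained and shared pairs fell to 2 in brain and 2 with 270,000 cells. Without peaks of 1 position, sites with tags numbered 3 in lung, 4 in kidney and 1 in liver, kidney had 0 shared pairs, and tags per 1,000,000 were 314 in brain, 75.1 in lung, 237 in kidney, 223 in liver, and 698, 222 and 0 with 2,700,000, 270,000 and 27,000 cells. The ratio of the domain to the same length of genome was then 0.416 in brain, 0.0923 in lung, 0.351 in kidney, 0.316 in liver, and 0.326 and 0 with 270,000 and 27,000 cells. With 2,700,000 cells it was 0.814, close to the 0.859 with all peaks. In that library 41.3% of the domain's peaks were of 1 position, against 86.1% to 94.6% in the organs, where few peaks were left. With peaks of at least 3 tags, 29 sites remained, at 0.722 per 100 kb around the channel genes and 1.68 from Sox9 onward, and 10 had tags in brain, 1 in liver, 6 with 270,000 cells and 0 in all 4 organs, with 2 shared pairs in brain and 1 with 270,000 cells. A window of 100 bp gave 6 sites each in lung and kidney. The 5 sites of the 270,000 cell library had tags at 4 in brain, 2 each in lung and kidney, 1 in liver and 0 in all 4 organs. All 5 had tags with 270,000 cells by construction, because their pairs come from that library. Control windows moved by 10 kb held tags in 2 cases in brain, 1 in lung, 3 in kidney, 2 in liver and 0 with 270,000 cells. Without dense bins in the library total, tags per 1,000,000 were 755 in brain, 938 in kidney, 842 in liver, and 816 and 1035 with 2,700,000 and 270,000 cells, and the ratio of the domain to the genome rose above 1 in kidney, from 0.963 to 1.04, and with 270,000 cells, from 0.967 to 1.15. The limit to sites of at least 100 tags, chosen after seeing the data, left 9, 6, 6 and 1 sites with tags in brain, lung, kidney and liver. Organ libraries held 527038 to 1635582 tags against 6592538 in the ranking library, which limits what absent tags show.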
